A study of Mus musculus with 4 samples.

Results

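T cells were a small population of the mouse tibia fracture callus, and their makeup differed most between control and arthritic animals at 7 days post fracture (dpf). A cell was taken as a T cell when it held at least 2 unique molecular identifiers (UMIs, each standing for 1 captured RNA molecule) of *Cd3e*, *Cd3d* and *Cd3g* together, at most 1 UMI of *C1qa* and at most 10 of *Col1a1*, within cells of 1000 to 50000 UMIs, at least 500 detected genes and at most 15% mitochondrial UMIs. By this rule 499 T cells were found among 29803 cells kept from 34038 barcodes. They numbered 86 of 6400 cells in the control library at 4 dpf, 115 of 5004 in the RA library at 4 dpf, 145 of 9039 in the control library at 7 dpf and 153 of 9360 in the RA library at 7 dpf.

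All animals were wild-type male C57BL/6J mice aged 3 months with a tibia fracture. Control mice received vehicle, and RA mice received K/BxN serum, whose autoantibodies transfer an inflammatory arthritis to the host without a need for the host's own T cells, so that the model is one of antibody-driven and not of T cell-driven disease. Each of the 4 conditions was a single 10x Genomics 3′ library from callus tissue of pooled animals (4 calluses by the series description, a number that differs from that in the study's methods), with 10000 cells loaded. One library per condition left no replicate against which to test a difference between RA and control. All intervals below are 95% exact intervals that cover counting error only. Because UMIs of 1 cell are not independent, the intervals of expression levels are too narrow.

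T cells carry an αβ or a γδ antigen receptor, each held at the surface by the CD3 chains. Among αβ T cells, the coreceptor CD4 marks helper cells and *Foxp3*-expressing regulatory cells, and CD8 marks cells with cytotoxic potential. γδ T cells of barrier and connective tissues are known as an early source of interleukin-17, which in the fracture callus has been studied for its action on mesenchymal progenitors, whereas regulatory T cells restrain inflammation and take part in tissue repair through amphiregulin.

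The mouse γδ cells known for interleukin-17 often use a Vγ6 chain paired with a Vδ1 chain, which in this annotation are *Tcrg-V6* and *Trdv4*. The germline ends of these 2 segments are shown because they mark the γδ cells that differed in number between the 7 dpf libraries. The last 120 coding bases of each segment are given on the plus strand of GRCm38 from the GENCODE annotation, at chr14:54075396-54075515 for *Trdv4* and chr13:19190810-19190929 for *Tcrg-V6*. Capitals mark the codon of the conserved cysteine at which the third complementarity-determining region begins, so that only the few bases after it belong to the stretch that rearrangement diversifies.
Trdv4: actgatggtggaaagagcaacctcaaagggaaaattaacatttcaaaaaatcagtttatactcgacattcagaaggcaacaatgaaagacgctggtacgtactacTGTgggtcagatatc
Tcrg-V6: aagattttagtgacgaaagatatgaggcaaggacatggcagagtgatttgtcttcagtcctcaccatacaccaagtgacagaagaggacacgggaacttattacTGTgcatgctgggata

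The members behaved as T cells in genes that the rule did not use. A constant chain of the αβ or γδ receptor was detected in 491 of the 499 cells (98.4%). *Trbc2*, the β constant chain, was detected in 74 of 86, 105 of 115, 126 of 145 and 135 of 153 cells in the order control 4 dpf, RA 4 dpf, control 7 dpf and RA 7 dpf. Its level was between 498 and 755 counts per 1000000 UMIs (CPM) in the T cells of the 4 libraries and between 1.55 and 2.95 CPM in all other kept cells. The other genes that stood highest in T cells over all other cells in every library included *Skap1*, an adaptor downstream of the antigen receptor, the transcription factors *Lef1* and *Satb1*, the lymphotoxin *Ltb* and the chemokine *Ccl5*. For these genes the lowest of the 4 log2 ratios of T cells to other cells was 4.85, 4.66, 4.21, 4.11 and 4.62, in that order. Since the cells were chosen by their CD3 UMIs, the CD3 genes themselves are no finding.

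The threshold of 2 CD3 UMIs separated cells with and without a receptor only in part. Of the 42 cells just inside it, with exactly 2 UMIs, 92.9% had a receptor constant chain. Of the 105 cells just outside, with 1 UMI, 56.2% had one. A further 39 cells had enough CD3 UMIs and were left out by *C1qa* or *Col1a1*. No cell barcode was shared between T cells of different libraries. T cells were shallow beside the other callus cells, with medians of 5440.5, 7688, 5435 and 6425 UMIs in control 4 dpf, RA 4 dpf, control 7 dpf and RA 7 dpf against 15492.5, 15628.5, 14469 and 15525 in all kept cells. The RA T cells were thus deeper than the control T cells at both times, which favours detection of a gene in RA cells, and for the main genes the ratio of cells with the gene is also given after every T cell was thinned to 1000 UMIs. Shares within a class were not thinned.

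As a share of kept cells, T cells were more frequent in the RA library at 4 dpf, and at 7 dpf the ratio depended on which cells were counted. The share at 4 dpf was 1.34% in control (interval 1.08 to 1.66) and 2.30% in RA (1.90 to 2.75), and the RA library stood at 1.71 times its control (1.28 to 2.29). The share at 7 dpf was 1.60% in control (1.36 to 1.88) and 1.63% in RA (1.39 to 1.91), or 1.02 times (0.807 to 1.29). Under the stricter cell limits of the study's methods, given below, the ratio was 2.76 (1.86 to 4.16) at 4 dpf and 1.36 (1.00 to 1.85) at 7 dpf. These limits left out 54.7% of T cells in control 4 dpf, 29.6% in RA 4 dpf, 48.3% in control 7 dpf and 28.8% in RA 7 dpf. The 7 dpf comparison also turned on the cells it was measured against. Among cells with a UMI of *Ptprc*, the pan-leukocyte gene CD45, T cells were 3.64% in control and 5.76% in RA at 7 dpf, a ratio of 1.58 (1.25 to 2.01). The share of *Ptprc* cells among kept cells itself differed between these libraries, with 3735 of 9039 in control and 2587 of 9360 in RA.

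**Figure D1:**
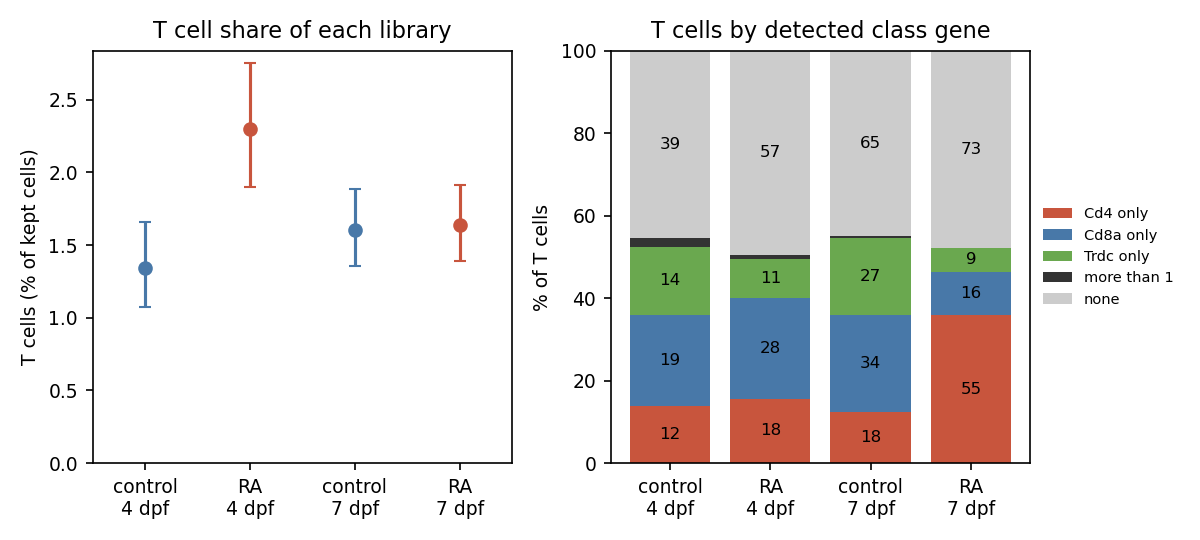
The left panel plots T cells as a percentage of kept cells in each library, with 95% exact intervals as bars; the RA library at 4 dpf lies highest, at 2.30%. The right panel stacks the T cells of each library by the class gene detected, as percentages, with cell numbers inside the bars; *Cd4* only cells are 55 of 153 in RA at 7 dpf and 18 of 145 in its control.

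T cells were sorted by the detection of *Cd4*, *Cd8a* and *Trdc*, the δ constant chain. *Cd4* only cells numbered 103, *Cd8a* only cells 97, *Trdc* only cells 61 and cells with more than 1 of the genes 4. The remaining 234 cells had none of them, and no cell had both *Cd4* and *Cd8a*. Absence of the gene in a cell of this depth does not show that the cell lacked it: *Trbc2* was detected in 202 of the 234 cells with none, *Trac* in 164 and *Cd8b1*, the β chain of the CD8 coreceptor, in 52. Nor does *Trdc* alone prove a γδ receptor: an αβ constant chain was detected in 54 of the 61 *Trdc* only cells, and a γ constant chain in 51.

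At 4 dpf the intervals of the ratios of RA to control of these classes among T cells included 1, whereas at 7 dpf the RA library had more *Cd4* only cells and fewer *Cd8a* only and *Trdc* only cells. *Cd4* only cells were 12 of 86 (14.0%), 18 of 115 (15.7%), 18 of 145 (12.4%) and 55 of 153 (35.9%) in control 4 dpf, RA 4 dpf, control 7 dpf and RA 7 dpf. The RA library at 7 dpf stood apart from the other 3 libraries, at 2.90 times its control (1.67 to 5.24). *Cd8a* only cells were 19, 28, 34 and 16 in the same order, or 22.1%, 24.3%, 23.4% and 10.5% of T cells. Here too the RA library at 7 dpf was the one out of range, at 0.446 times its control (0.230 to 0.830). *Trdc* only cells were 14, 11, 27 and 9, or 16.3%, 9.57%, 18.6% and 5.88%, and the ratio was 0.316 (0.131 to 0.692) at 7 dpf. At 4 dpf the ratios of the same classes were 1.12 (0.511 to 2.55), 1.10 (0.594 to 2.09) and 0.588 (0.241 to 1.39), and each interval held 1. The *Trdc* ratio at 4 dpf was below 1 in all 7 alternatives, of which the removal of cells called as doublets took out only 1 control and 0 RA T cells. Under the cell limits of the study's methods (4000 to 50000 UMIs, 2000 to 7000 genes, at most 8% mitochondrial UMIs) the *Trdc* ratio at 4 dpf was 0.350 (0.122 to 0.956). Under the same limits the *Cd4* only ratio at 4 dpf was 5.30 (0.770 to 228), from 11 RA cells and 1 control cell.

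Against all kept cells, the ratios at 4 dpf were 1.92 (0.874 to 4.37) for *Cd4* only, 1.88 (1.02 to 3.57) for *Cd8a* only, 1.00 (0.413 to 2.38) for *Trdc* only cells and 1.87 (1.22 to 2.89) for cells with none of the genes, beside the higher T cell share in RA. At 7 dpf the contrasts were as large as among T cells. *Cd4* only cells were 0.199% of kept cells in control and 0.588% in RA (ratio 2.95, 1.71 to 5.34), *Cd8a* only cells 0.376% and 0.171% (0.454, 0.234 to 0.846) and *Trdc* only cells 0.299% and 0.0962% (0.322, 0.133 to 0.705). The 2 libraries of 7 dpf thus differed in the makeup of their T cells by either measure.

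Free RNA released by lysed cells can place UMIs in cells that do not express a gene. As a measure of it, the share of *Cd3*-negative mesenchymal cells (*Col1a1* above 10 UMIs) with a UMI was taken. *Cd8a* was found in at most 0.0419% of them and *Trdc* in 0.986% to 2.35%, below the T cell shares although those cells were deeper (medians of 23725.5 to 30930 UMIs). *Cd4* was found in 3.69% to 6.88% of them before thinning and in at most 0.231% after it. The thinned RA to control ratios at 7 dpf were 3.32 (1.04 to 13.8) for T cells with *Cd4*, 0.355 (0.0607 to 1.48) for those with *Cd8a* and 0.263 (0.0764 to 0.736) for those with *Trdc*. Each ratio kept its side of 1 at equal depth, with the interval of *Cd8a* then including 1. For *Cd4* only cells the thinned ratio was 2.46 (0.824 to 8.83), and that interval also included 1. The other chain of the coreceptor, *Cd8b1*, followed in level but not in cells at equal depth. Its summed level was 172, 125, 119 and 64.2 CPM in control 4 dpf, RA 4 dpf, control 7 dpf and RA 7 dpf, a 7 dpf ratio of 0.541 (0.398 to 0.732). It was detected in 32 of 86, 35 of 115, 39 of 145 and 27 of 153 T cells in the same order, and the 7 dpf ratio of cells was 0.656 (0.386 to 1.10) before and 1.04 (0.402 to 2.74) after thinning, which left 10 control and 11 RA cells.

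Most regulatory T cells lay in the *Cd4* class. *Foxp3*, the transcription factor that defines them, was detected in 1 of 86, 3 of 115, 15 of 145 and 31 of 153 T cells in control 4 dpf, RA 4 dpf, control 7 dpf and RA 7 dpf. Both 7 dpf libraries held more such cells than both 4 dpf libraries, and the RA library held most, 20.3% of its T cells against 10.3% in control (ratio 1.96, 1.03 to 3.90). After thinning the 7 dpf ratio was 2.13 with an interval of 0.595 to 9.48. In mesenchymal cells *Foxp3* was found in at most 0.252%, and in the *Cd3*-negative lymphocytes described below no UMI of it was found.

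In the 50 *Foxp3* cells the genes usually found in activated tissue regulatory T cells were common, as a description of cells chosen by 1 gene. *Ikzf2*, which encodes Helios, was detected in 100% of them and in 39.6% of the 449 other T cells. The receptors *Ctla4*, *Tnfrsf4* (OX40), *Tnfrsf9* (4-1BB) and *Tnfrsf18* (GITR) were detected in 92%, 90%, 92% and 88%, against 28.5%, 5.35%, 19.8% and 24.5% of the others. Genes of the tissue repair phenotype followed: *Klrg1* was detected in 74% against 3.34%, *Il1rl1*, the interleukin-33 receptor, in 50% against 5.35%, *Itgb8*, which activates TGF-β, in 52% against 1.56%, and *Areg*, amphiregulin, in 48% against 2.90%. Before thinning, mesenchymal cells, which are deeper, had *Il1rl1* in 23.4% to 27.7%, *Ikzf2* in 14.7% to 20.4% and *Ctla4* in 13.4% to 20.3% of cells, and *Tnfrsf4*, *Klrg1* and *Areg* in at most 0.860%, 0.147% and 2.18%. Of the 50 cells, 38 were *Cd4* only cells and 12 had none of the class genes, 5 of 15 in control and 6 of 31 in RA at 7 dpf, and none had a UMI of *Cd8a* or *Trdc*.

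**Figure D2:**
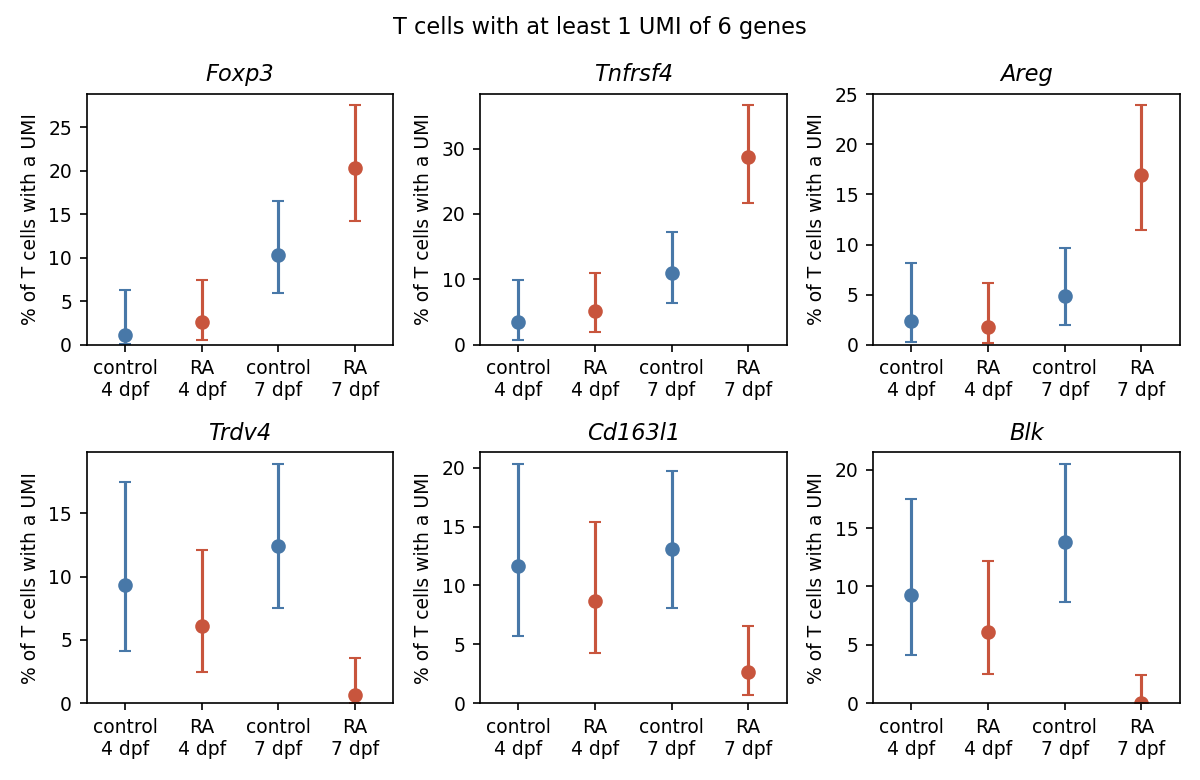
Each panel plots the percentage of T cells with at least 1 UMI of a gene in the 4 libraries, with 95% exact intervals as bars and control in blue and RA in red. *Foxp3*, *Tnfrsf4* and *Areg* are highest in RA at 7 dpf (20.3%, 28.8% and 17.0%), whereas *Trdv4*, *Cd163l1* and *Blk* are lowest there (0.654%, 2.61% and 0%).

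The RNA levels of T cells were then compared by summing their UMIs in each library. Over all genes with at least 50 UMIs in the pair of libraries, 83 of 4521 genes (1.84%) were at least 2-fold higher and 102 (2.26%) at least 2-fold lower in RA T cells at 4 dpf, and 54 of 5382 (1.00%) and 73 (1.36%) at 7 dpf, on the scale log2(CPM + 10). These percentages are the reference for the counts of genes past 2-fold in every list below. With each cell given equal weight, the split was 102 higher and 75 lower at 4 dpf and 55 higher and 45 lower at 7 dpf. Without T cells that carried UMIs of other cell types, as described below, it was 42 and 27 at 4 dpf and 57 and 17 at 7 dpf. The median log2 ratio of all genes was 0.03 at 4 dpf and 0.05 at 7 dpf. In such sums a change in the number of cells of a class and a change in the RNA of each cell cannot be told apart.

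Regulatory T cell genes were higher in RA T cells at 7 dpf. Of 13 genes of this list that could be compared, 7 were at least 2-fold higher and none at least 2-fold lower, against 1.00% and 1.36% of all genes, and the list's median log2 ratio was 1.06. At 4 dpf 1 of 6 genes, *Ikzf2*, was at least 2-fold higher and the median was 0.52. *Ikzf2* was not confined to regulatory cells. At 4 dpf it was detected in 20 of 85 control and 47 of 112 RA T cells without *Foxp3*, beside 1 and 3 *Foxp3* cells. In cells with none of the class genes it was in 5 of 39 control and 31 of 57 RA cells at that time. When the classes were given equal weight, the median at 7 dpf was 0.15, with *Foxp3* at 0.07, *Tnfrsf4* at 0.15 and *Ctla4* at 0.35.

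*Ctla4* was at 93.3 CPM (interval 70.8 to 121), 129 (108 to 153), 266 (234 to 301) and 598 (555 to 645) in control 4 dpf, RA 4 dpf, control 7 dpf and RA 7 dpf. *Tnfrsf4* followed the same order of libraries, at 17.7, 21.5, 141 and 320 CPM, a log2 ratio of RA to control of 1.13 at 7 dpf and 0.19 at 4 dpf. Both genes differed more between the times than between the treatments at 4 dpf. *Ikzf2*, which in each library was detected mostly in T cells without a *Foxp3* UMI, was at 238, 589, 761 and 1636 CPM. It was the one gene of the list past 2-fold at both times (log2 ratios 1.27 and 1.09). It stayed past 2-fold in 8 of 9 alternatives at 4 dpf and in 7 of 9 at 7 dpf, with lowest values of 0.47 and 0.55. *Areg* was at 25.7, 11.7, 14.8 and 109 CPM, with the 4 dpf values resting on 2 cells in each library and the 7 dpf values on 7 and 26 cells. Its log2 ratio at 7 dpf was 2.26, the largest of the 13 genes. Thinned, the ratio of T cells with *Areg* at 7 dpf was 3.32 (0.632 to 32.7) against 3.52 (1.49 to 9.61), and that of cells with *Tnfrsf4* 2.65 (1.25 to 6.12) against 2.61 (1.44 to 4.95). *Foxp3* was at 3.22, 6.84, 30.7 and 74.6 CPM, and *Izumo1r*, folate receptor 4, at 16.1, 7.81, 13.8 and 43.4 CPM, with log2 ratios of 1.06 and 1.17 at 7 dpf. The regulatory genes below 2-fold at 7 dpf lay between 0.16 (*Il2ra*) and 0.72 (*Klrg1*).

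Within the *Cd4* only class at 7 dpf, the intervals of the ratios of *Foxp3*, *Ctla4* and *Tnfrsf4* cells included 1. *Foxp3* was detected in 10 of 18 control and 25 of 55 RA cells (ratio 0.818, 0.380 to 1.91), *Ctla4* in 11 of 18 and 41 of 55 (1.22, 0.616 to 2.63), and *Tnfrsf4* in 9 of 18 and 35 of 55 (1.27, 0.600 to 3.01). The intervals left room for differences of over 2-fold. *Areg* was detected in 3 of 18 and 21 of 55 cells (2.29, 0.684 to 12.0), and *Il1rl1* in 4 of 18 and 23 of 55 (1.88, 0.643 to 7.49). *Il1r2*, the decoy receptor of interleukin-1, was detected in 1 of 18 and 19 of 55 (6.22, 0.988 to 258). At 4 dpf *Foxp3* was detected in 1 of 12 control and 2 of 18 RA cells of the class, whereas *Lef1*, a transcription factor of naive T cells, was detected in 10 of 12 and 15 of 18, against 7 of 18 and 29 of 55 at 7 dpf. The *Cd4* cells of 4 dpf were thus richer in a naive gene and poorer in *Foxp3* than those of 7 dpf in both treatments.

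Of the ligands of the tumour necrosis factor family, *Tnfsf8* and *Tnfsf11* were past 2-fold in the summed T cells, whereas *Ltb* had log2 ratios of -0.39 and 0.00 at 4 and 7 dpf and *Tnf* was at 30.5, 31.2, 31.8 and 18.2 CPM in control 4 dpf, RA 4 dpf, control 7 dpf and RA 7 dpf. *Tnfsf8* (CD30 ligand) was at 14.5, 57.6, 18.0 and 140 CPM in control 4 dpf, RA 4 dpf, control 7 dpf and RA 7 dpf, but 51.6% of its UMIs in RA at 7 dpf lay in 1 cell, and the share of T cells with a UMI was 8.97% in control and 13.7% in RA (ratio 1.53, 0.732 to 3.33, and 6.63, 0.852 to 299, after thinning). With the T cells that carried UMIs of other cell types left out, as described below, its log2 ratio at 7 dpf was -0.04 in place of 2.42. That value was not among the 7 alternatives in which the gene could be compared, of which the lowest was 1.82. *Tnfsf11*, which encodes the osteoclast differentiation factor RANKL, was at 16.1, 33.2, 13.8 and 63.3 CPM. It was detected in 8 of 145 control and 22 of 153 RA cells at 7 dpf (2.61, 1.12 to 6.77, and 7.58, 1.02 to 336, after thinning), and its log2 ratio was 1.63, or 0.81 without the cells that carried UMIs of other cell types. The 0.81 too was not among its 7 compared alternatives, of which the lowest was 1.09. Only 2 of the 50 *Foxp3* cells had *Tnfsf11*, and 3 had *Tnfsf8*. In the *Cd3*-negative lymphocytes *Tnfsf11* was at 4.54, 1.31, 7.76 and 4.05 CPM in the same order of libraries, below the T cells of each.

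Callus T cells held a small part of the *Tnfsf11* of the callus. Their UMIs were 1.40%, 2.24%, 0.427% and 2.84% of the *Tnfsf11* UMIs of all kept cells in control 4 dpf, RA 4 dpf, control 7 dpf and RA 7 dpf. Mesenchymal cells express this gene themselves, and 17.8% to 36.4% of them had a UMI.

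*Tox* and *Nr4a2*, nuclear factors induced by antigen receptor signalling, *Rel*, a subunit of NF-κB, and *Jak2*, a kinase of cytokine receptors, were higher in RA at 7 dpf, with log2 ratios of 1.24, 1.14, 1.10 and 1.27. Each stayed past 2-fold in 8 of 9 alternatives, with lowest values of 0.49, 0.70, 0.80 and 0.82. At 4 dpf the ratios of the same genes were 0.64, 0.93, 0.96 and 0.71. *Tox* was at 148 and 236 CPM at 4 dpf and at 274 and 662 CPM at 7 dpf in control and RA, respectively.

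The type 3 list, which holds the genes of interleukin-17 producing lymphocytes, moved the other way. Of 13 of its genes compared at 7 dpf, 9 were at least 2-fold lower in RA T cells and none at least 2-fold higher, against 1.36% and 1.00% of all genes. The median log2 ratio was -1.99. At 4 dpf 2 of 11 were at least 2-fold lower, against 2.26% of all genes, with a median of -0.64 that turned to 0.18 when the classes were given equal weight. The γδ receptor chains behaved alike, with all 3 compared genes lower at 7 dpf (median -2.49) and both compared genes lower at 4 dpf (-1.51).

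*Trdc* was at 227 CPM (191 to 267), 67.4 (52.4 to 85.3), 215 (186 to 247) and 27.8 (19.0 to 39.2) in control 4 dpf, RA 4 dpf, control 7 dpf and RA 7 dpf. Both RA libraries lay below both control libraries. *Cd163l1*, a scavenger receptor of γδ T cells, was at 80.4, 33.2, 141 and 6.07 CPM (log2 ratio -3.23 at 7 dpf). *Il1r1* and *Il23r*, the receptors through which interleukin-1 and interleukin-23 induce interleukin-17, were at 97.4 and 95.3 CPM in control and at 6.94 and 13.0 CPM in RA at 7 dpf. Before thinning, 60.7% to 83.0% of mesenchymal cells also had a UMI of *Il1r1*. *Blk*, a Src-family kinase expressed in B cells and in these γδ T cells, was at 48.2, 13.7, 96.3 and 0 CPM, so that at 7 dpf it was at least 37.0-fold lower in RA when 3 UMIs are allowed for the count of 0. The RA library at 7 dpf was the lowest for each of these genes. *Igf1r*, the receptor of insulin-like growth factor 1, had log2 ratios of -2.05 at 7 dpf and 0.01 at 4 dpf, and the protease inhibitor *Serpinb1a* -1.99 and 0.43, the last with 52.1% of its RA UMIs in 1 cell. Of the members not past 2-fold, the transcription factors *Maf*, *Ahr*, *Batf* and *Rora* lay between 0.01 and 0.56 at 7 dpf.

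**Figure D3:**
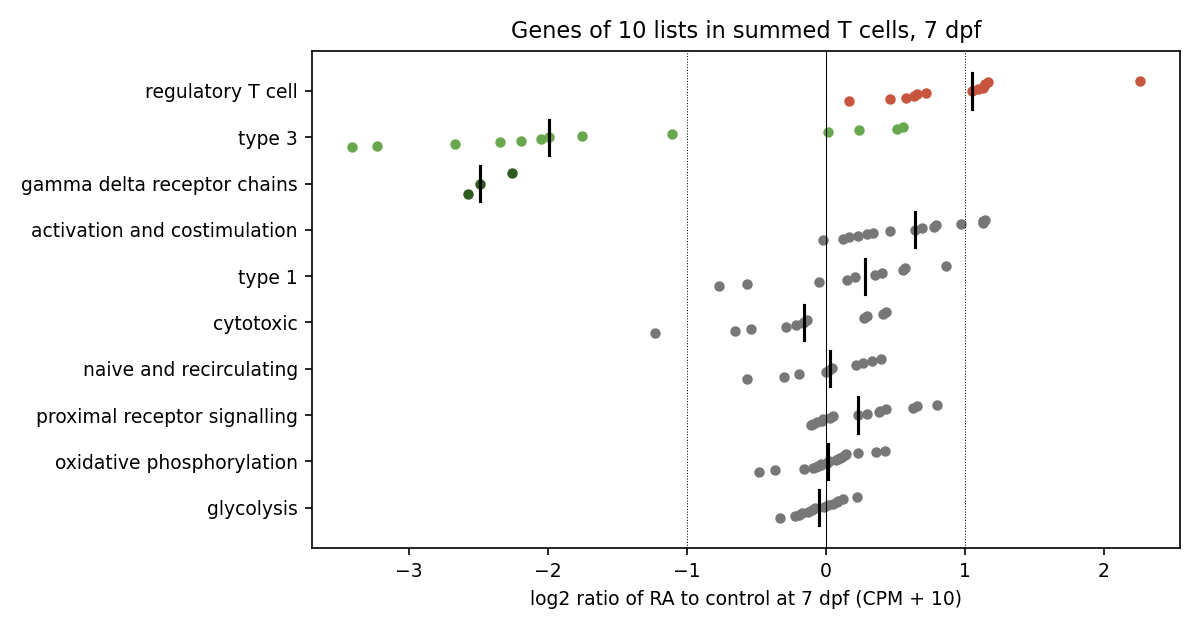
Each point is a gene and its log2 ratio of RA to control in summed T cells at 7 dpf, on the scale log2(CPM + 10), for 10 gene lists; vertical bars are list medians and dotted lines mark 2-fold. The regulatory list has 7 of 13 genes at or right of 1, the type 3 list 9 of 13 at or left of -1, and the lists of glycolysis and oxidative phosphorylation lie around 0.

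Counted as cells, *Trdv4* was detected in 8 of 86, 7 of 115, 18 of 145 and 1 of 153 T cells in control 4 dpf, RA 4 dpf, control 7 dpf and RA 7 dpf. The near absence was in RA at 7 dpf only, where the ratio to control was 0.0527 (0.00126 to 0.333). As a share of all kept cells the ratio was 0.0537 (0.00129 to 0.340) at 7 dpf and 1.12 (0.345 to 3.53) at 4 dpf. *Blk* cells were 8, 7, 20 and 0. The 0 of 153 allows a share of up to 1.96% if 3 cells are allowed, and up to 2.38% by the exact interval. This limits cells with a UMI and gives no limit on cells that express the gene. *Cd163l1* cells were 10, 10, 19 and 4, and *Il23r* cells 9, 8, 23 and 6. The ratios of these 3 genes at 7 dpf had upper limits of 0.192, 0.600 and 0.625, and those at 4 dpf all included 1. Thinned, the upper limits at 7 dpf were 0.311, 0.534 and 0.445, and that of *Trdv4* was 0.480.

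The 34 *Trdv4* cells were uniform in other genes of the type 3 list. *Cd163l1* was detected in 91.2% of them and in 2.58% of the other 465 T cells, *Il23r* in 79.4% against 4.09%, *Il1r1* in 79.4% against 5.38%, *Blk* in 73.5% against 2.15%, and *Zbtb16*, the transcription factor PLZF of innate-like T cells, in 82.4% against 6.67%. Mesenchymal cells had *Il1r1* in 60.7% to 83.0% of cells, or 8.45% to 20.2% after thinning. Before thinning they had *Cd163l1*, *Il23r* and *Blk* in at most 0.252%, 0.417% and 1.77%. *Cxcr6*, a chemokine receptor of tissue T cells, was detected in 88.2% against 23.2%. *Tcrg-V6* was detected in 17 of the 34 cells and in 3 of the 465 others. The cytotoxic granule gene *Nkg7* was detected in 1 *Trdv4* cell, against 61.5% of the others. A γ variable segment was detected in 40 of the 61 *Trdc* only cells, most often *Tcrg-V6* and *Trgv2* (19 cells each), and a δ variable segment in 35. Reads of 3′ libraries reach the variable segments only in part, and reads of near-identical segments or constant chains can be split between them, so these are lower limits of use.

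*Il17a* RNA was almost confined to T cells in these libraries. Of 68 *Il17a* UMIs in all kept cells, 67 lay in T cells, in 4, 3, 7 and 2 cells of control 4 dpf, RA 4 dpf, control 7 dpf and RA 7 dpf. Of these 16 cells 14 were *Trdc* only cells, and 14 had *Trdv4*. The level was 35.4 (22.2 to 53.6), 9.77 (4.68 to 18.0), 27.5 (18.0 to 40.3) and 7.81 CPM (3.57 to 14.8). Both RA libraries were below both controls, but in each library at least 38.5% of the UMIs came from 1 cell, and the ratio of cells at 7 dpf was 0.271 (0.0274 to 1.42). *Il17f* had 1, 3, 4 and 2 UMIs in T cells, and *Il22* had 1, 0, 3 and 0.

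The *Trdc* only cells of the 7 dpf libraries also differed in the genes they held. Of the 27 control and 9 RA cells, *Trdv4*, *Il23r* and *Il1r1* were each detected in 17 and 1 (ratio 0.176, 0.00422 to 1.13), *Cd163l1* in 18 and 1 (0.167, 0.00400 to 1.06), *Tmem176b* in 21 and 1 (0.143, 0.00345 to 0.888), *Blk* in 18 and 0 (upper limit 0.682) and *Igf1r* in 20 and 1 (0.150, 0.00362 to 0.938). With 9 RA cells, most of these intervals reached 1 or nearly so. The γ constant chains *Tcrg-C2* (9 and 4 cells, 1.33, 0.300 to 4.78) and *Tcrg-C4* (8 and 5, 1.88, 0.483 to 6.50) and *Zbtb16* (18 and 5, 0.833, 0.242 to 2.33) were not lower to that extent. The remaining γ constant chain, *Tcrg-C1*, was in 18 and 3 (0.5, 0.0943 to 1.71). *Maf* was in 17 and 3 (0.529, 0.0994 to 1.83) and *Cxcr6* in 20 and 2 (0.3, 0.0340 to 1.23). The reverse held for genes of circulating and cytotoxic T cells. *Ccl5* was detected in 3 control and 7 RA cells (7, 1.60 to 42.0), *Nkg7* in 5 and 7 (4.2, 1.15 to 16.8), and *Ly6c2* in 2 and 6 (9, 1.61 to 91.2). The 9 remaining *Trdc* cells of RA were thus mostly not of the *Trdv4* kind, whereas at 4 dpf *Trdv4* was detected in 7 of 14 control and 6 of 11 RA cells.

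**Figure D4:**
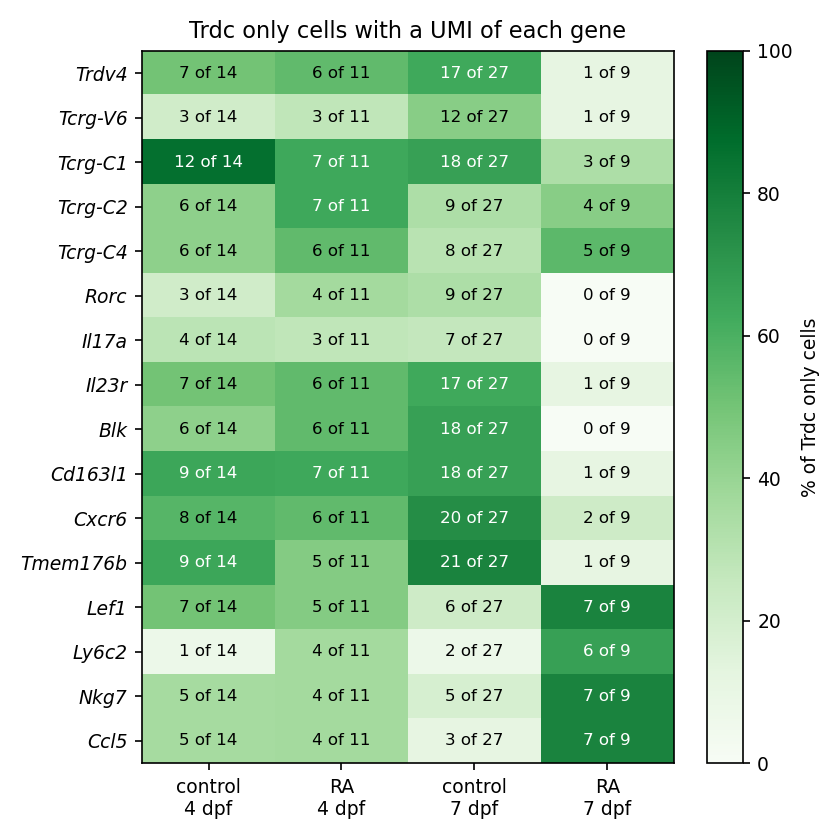
Rows are genes and columns are libraries; each field gives how many *Trdc* only cells had a UMI of the gene, and darker green is a larger percentage. In RA at 7 dpf the 9 cells have *Trdv4*, *Il23r*, *Cd163l1* and *Tmem176b* in 1 cell each and *Nkg7*, *Ccl5* and *Lef1* in 7, whereas in its control *Trdv4* is in 17 of 27 cells and *Ccl5* in 3.

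The *Cd8a* only cells were fewer in RA at 7 dpf, and their small numbers left wide intervals for the genes they held. *Nkg7* was detected in 88 of the 97, *Cd8b1* in 77, *Ly6c2* in 70, *Lef1* in 64 and *Ccl5* in 63. At 7 dpf *Nkg7* was found in 31 of 34 control and 15 of 16 RA cells (ratio 1.03, 0.516 to 1.96), *Ccl5* in 23 and 13 (1.20, 0.559 to 2.47) and *Lef1* in 21 and 8 (0.810, 0.310 to 1.90). *Gzmb*, the cytotoxic protease granzyme B, was detected in 9 of 34 and 2 of 16 (0.472, 0.0496 to 2.28). The chemokine receptor *Ccr7* was found in 11 and 2 (0.386, 0.0416 to 1.77), and *Xcl1* in 4 and 5 (2.66, 0.572 to 13.4). These intervals included 1 and left room for differences of over 2-fold. Cells with *Nkg7* made up most of the class in all 4 libraries. In the summed T cells *Cd8a* was at 61.1, 74.2, 61.4 and 19.9 CPM in control 4 dpf, RA 4 dpf, control 7 dpf and RA 7 dpf, and *Dapl1*, which is found in naive and memory CD8 cells, at 54.7, 70.3, 66.7 and 17.3 CPM, with log2 ratios of -1.25 and -1.49 at 7 dpf.

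Cells with none of the class genes differed at 4 dpf. *Klra7* and *Klra1*, receptors of the Ly49 family found on natural killer cells and on some T cells, were detected in 1 and 1 of 39 control cells and in 20 and 15 of 57 RA cells (ratios 13.7, 2.19 to 567, and 10.3, 1.58 to 432). At 7 dpf they were found in 13 and 10 of 65 control and in 22 and 20 of 73 RA cells (1.51, 0.726 to 3.26, and 1.78, 0.796 to 4.26). The control library at 4 dpf stood apart from the other 3, and its cells of this class were the shallowest, with a median of 5053 UMIs against 7282, 5509 and 6509. *Cd8b1* ran the other way in this class, in 16 of 39 control and 9 of 57 RA cells at 4 dpf (0.385, 0.150 to 0.925) and in 13 of 65 and 14 of 73 at 7 dpf. *Ikzf2* was least frequent in control 4 dpf, in 5 of 39, 31 of 57, 29 of 65 and 42 of 73 cells. Of further natural killer receptor genes at 4 dpf, *Klre1* was in 4 of 39 control and 19 of 57 RA cells (3.25, 1.08 to 13.1). *Klrb1c* was in 3 and 9 (2.05, 0.512 to 11.8), and *Ncr1* in 1 and 1. *Klra* genes are near-identical copies of each other and their reads may be split among them. In the summed T cells *Klra7* was at 16.1, 105, 103 and 153 CPM, and *Xcl1*, a chemokine for cross-presenting dendritic cells, at 51.5, 237, 156 and 139 CPM (log2 ratio 2.01 at 4 dpf and -0.16 at 7 dpf). At 4 dpf 46.9% of the control and 45.7% of the RA UMIs of *Xcl1* lay in 1 cell each, and the ratio of cells with it was 1.99 (0.895 to 4.88).

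Cytotoxic genes as a list did not differ in 1 direction. At 4 dpf 1 of 10 genes was at least 2-fold higher (*Xcl1*) and 1 at least 2-fold lower (*Gzma*), with a median of 0.31, and at 7 dpf 0 of 12 were higher and 1 lower (*Gzma*), with a median of -0.16. *Gzma*, granzyme A, was at 106, 45.9, 186 and 73.7 CPM in control 4 dpf, RA 4 dpf, control 7 dpf and RA 7 dpf, and lay in 6, 8, 11 and 12 cells. Its level was lower in RA at both times, but at 4 dpf 68.2% of the control UMIs and 78.7% of the RA UMIs lay in 1 cell each.

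Among type 1 genes 1 of 8 was at least 2-fold higher at 4 dpf (*Il12rb2*, a chain of the interleukin-12 receptor, log2 ratio 1.11) and none of 10 was past 2-fold at 7 dpf (median 0.29). *Ifng*, interferon-γ, was at 83.6, 42.0, 91.1 and 49.4 CPM, with log2 ratios of -0.85 and -0.77, but the share of cells with it was not lower at 4 dpf (8 of 86 and 15 of 115, ratio 1.40, 0.558 to 3.82) and was 0.948 times the control at 7 dpf (0.522 to 1.72), and 32.7% of the control UMIs at 4 dpf lay in 1 cell. *Tbx21*, the type 1 transcription factor, was at 96.5, 106, 97.4 and 127 CPM. Of the type 2 list only *Gata3*, *Il1rl1* and *Areg*, which the regulatory list also holds, had enough UMIs at 7 dpf, and *Il4* and *Il13* had at most 1 UMI in the T cells of any library.

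Cytokine receptors were mixed. At 4 dpf 3 of 22 were at least 2-fold higher, namely *Il2rb* (a chain of the interleukin-2 receptor, 1.13), *Il4ra* (1.18) and *Il12rb2*, and none lower (median 0.29). At 7 dpf 1 of 25 was higher (*Il1r2*, 1.20) and 2 were lower (*Il1r1* and *Il23r*, of the type 3 pattern), with a median of 0.15. *Il2rb* was at 169, 381, 245 and 432 CPM, higher in RA at both times. Among the activation list 1 of 13 genes was at least 2-fold higher at 4 dpf (*Il2rb*) and 3 of 15 at 7 dpf (*Tnfrsf4*, *Tnfrsf9* and *Nr4a2*), with medians of 0.34 and 0.64 and none lower. Among proximal receptor signalling genes *Cd5* (1.27) and *Cd6* (1.07), which damp the antigen receptor signal, were past 2-fold of 15 compared at 4 dpf, and none was at 7 dpf.

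Of the cytokines and growth factors, 9 were compared at 7 dpf, of which the 3 at least 2-fold higher were *Tnfsf11*, *Tnfsf8* and *Areg* (median 0.56), and 7 at 4 dpf, of which *Tnfsf8* and *Il1b* (2.44) were higher and *Vegfa* (-1.23) lower (median 0.02). Without the cells that carried UMIs of other cell types the median at 4 dpf was -0.52 and *Il1b*, which lay in 2 control and 6 RA cells beside the neutrophil genes given below, was at -0.30. *Cd40lg*, the helper ligand of B cells and dendritic cells, was at 25.7, 21.5, 15.9 and 30.4 CPM in control 4 dpf, RA 4 dpf, control 7 dpf and RA 7 dpf. T cells carried 47.1%, 84.6%, 78.9% and 94.6% of the *Cd40lg* UMIs of all kept cells, in the same order. They carried 22.2%, 58.3%, 65.9% and 78.9% of those of *Foxp3*, and 21.3%, 26.2%, 40.3% and 40.1% of those of the lymphotoxin *Ltb*. These shares lay far above the 0.535% to 1.12% that T cells held of all UMIs.

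Several programmes showed no gene past 2-fold at 7 dpf. These were naive and recirculating T cells (10 genes compared, median 0.03), the cell cycle (16, 0.02), the interferon response (10, 0.00), Notch receptors and effectors (6, 0.08), oxidative phosphorylation (20, 0.02) and glycolysis (14, -0.05). The receptor complex had none either (7, -0.03). As its list holds CD3 genes by which the cells were chosen, that is no finding. The Notch genes, which are the subject of the study in mesenchymal progenitors, included *Notch1* at 96.5, 71.3, 78.3 and 65.9 CPM in the T cells of control 4 dpf, RA 4 dpf, control 7 dpf and RA 7 dpf, and none was past 2-fold of 5 compared at 4 dpf (median 0.04). At 4 dpf the oxidative phosphorylation genes had a median of -0.35, with 18 of 20 below 0 and none past 2-fold. In control 15.9% of their summed UMIs lay in 1 cell, and the median was -0.07 without the cells that carried UMIs of other cell types. The immediate early gene *Jun* was at 220, 73.2, 167 and 102 CPM (log2 ratios -1.47 and -0.66), and it was the one of 11 such genes past 2-fold at 4 dpf.

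RNA of other cell types was present in T cells and differed between libraries. UMIs of another cell type above fixed limits were carried by 12, 18, 48 and 81 T cells (14.0%, 15.7%, 33.1% and 52.9%) in control 4 dpf, RA 4 dpf, control 7 dpf and RA 7 dpf. The limits were 20 UMIs of *S100a8* and *S100a9*, 10 of *Csf1r* and *Lyz2* and 5 of *Col1a1* and *Col3a1*. There were also limits of 3 for *Pecam1*, *Cdh5* and *Plvap*, and one on *Cd79a* and *Ms4a1*. Genes of granulocytes, red cells and antigen-presenting cells gave large log2 ratios. Most of their UMIs lay in 1 cell of a library, with a few UMIs in many others. *S100a8* was detected in 1 of 86, 46 of 115, 6 of 145 and 8 of 153 T cells and in 7.72%, 59.9%, 16.0% and 6.98% of the mesenchymal cells of the same libraries, and the haemoglobin gene *Hba-a1* in 36, 0, 87 and 95 T cells and in 42.2%, 3.13%, 51.0% and 54.5% of mesenchymal cells. In T cells and mesenchymal cells alike, RA 4 dpf was the highest library for *S100a8* and the lowest for *Hba-a1*. The 9 neutrophil genes summed to 20.9, 14620, 8192 and 30.4 CPM, led by *S100a8* or *S100a9*, with 53.4% of the RA 4 dpf sum and 99.7% of the control 7 dpf sum in 1 cell each. The 5 erythroid genes summed to 6211, 15.6, 691 and 589 CPM, with 94.4% of the control 4 dpf sum in 1 cell. The 12 mesenchymal genes summed to 937, 268, 1448 and 1464 CPM and lay in 83, 95, 145 and 153 cells, so that they were spread over nearly all T cells. The B cell gene *Ms4a1* and the mast cell genes *Cpa3*, *Cma1*, *Tpsb2* and *Fcer1a* were at 0 in the T cells of all 4 libraries.

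With the cells above these limits left out, the class ratios at 7 dpf were 3.37 (1.56 to 7.86) for *Cd4* only, 0.410 (0.149 to 0.987) for *Cd8a* only and 0.385 (0.0923 to 1.23) for *Trdc* only cells. The T cell share at 7 dpf turned to the other side, at 0.717 (0.521 to 0.982). For this share the cells were taken out of the T cells only, 48 in control and 81 in RA, while the denominator remained all kept cells. *Col3a1*, a gene of the limits, was detected in 110 of 145 control and 143 of 153 RA T cells, so this ratio does not show that T cells were fewer in RA. The medians at 7 dpf without the cells above the limits were 1.16 for the regulatory list and -1.98 for the type 3 list. Of the lists of other cell types, the neutrophil median was then 0.59 at 4 dpf and -0.13 at 7 dpf in place of 6.88 and -6.85, where *S100a8* and *S100a9* were among the genes that set the limits. The dendritic median was -0.12 and 0.03 in place of 3.07 and -2.02, and the endothelial median -0.07 and 0.01 in place of -1.97 and -2.28. The macrophage (-0.62 and -0.65), mesenchymal (-1.41 and -0.14) and erythroid medians (-7.32 and -0.09) changed less.

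For comparison, cells without any CD3 UMI and with at least 2 UMIs of *Ncr1* and *Klrb1c*, receptors of natural killer cells, numbered 42, 71, 84 and 177 in control 4 dpf, RA 4 dpf, control 7 dpf and RA 7 dpf. Their RA to control ratio as a share of kept cells was 2.16 (1.46 to 3.25) at 4 dpf and 2.03 (1.56 to 2.67) at 7 dpf. The interval of these cells at 7 dpf lay wholly above that of the T cells (0.807 to 1.29). The T cell interval was 1.00 to 1.85 under the study's cell limits and 1.25 to 2.01 among *Ptprc* cells. Both of these overlapped the interval of the *Cd3*-negative cells. *Gzma* was at 2109 to 2480 CPM in them and at 45.9 to 186 CPM in T cells, whereas *Cd4* and *Cd8a* were at 0 in them in every library.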

How the data were processed

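Single-cell 3′ libraries (10x Genomics v3.1) of fracture callus were prepared for 4 conditions, 1 library each. The authors aligned reads to mm10 and counted UMIs with Cell Ranger 7.0.1 (version per the labels), and the deposited matrices hold raw UMI counts for 32285 genes and 7630, 5896, 10206 and 10306 barcodes in control 4 dpf, RA 4 dpf, control 7 dpf and RA 7 dpf (168210361, 130168130, 177131833 and 182259646 UMIs). Whether intronic reads were counted is not given in the sources used here. Cell filters and the T cell rule are as stated in the results. Scrublet (scanpy 1.11.5) marked 76, 2, 329 and 381 kept cells as doublets, of which 4 were T cells; its 2 marks among 5004 cells of RA 4 dpf show that it did not work there, so its calls served only as an alternative. UMIs were summed over the T cells of a library, scaled to CPM and compared as log2(CPM + 10) for genes with at least 50 UMIs in the pair, and a log2 ratio of at least 1 in size was taken as past 2-fold. Shares have exact Clopper-Pearson intervals, levels exact Poisson intervals and ratios exact conditional intervals (95%), from SciPy 1.17.1. Genes were named from 23 lists of T cell genes and 10 of other cell types, as the 10 largest differences in each direction per time among genes of at least 50 CPM that moved the same way at the other time, and as the genes highest in each class (10) or in all T cells (15). The members and lists were chosen with earlier results of these data known. Scripts were tested on simulated data. Alternatives were the cell limits of the study's methods, the number of CD3 UMIs, pseudocounts, UMI minimums, TMM factors (edgeR 4.0.16), cell and class weights, thinning, doublets and cells with UMIs of other cell types. The V segment positions are from the GENCODE annotation of GRCm38. Certain genes are not reported here.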

Additional observations from a re-analysis of the deposited data

Results flagged for a closer look

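A set of T cell values differed in direction between the times, being higher in RA than control at 4 dpf and lower at 7 dpf or the reverse. With 1 library per condition these differences were not tested. In log2 ratios of RA to control on the log2(CPM + 10) scale, the neutrophil granule and alarmin genes stood at 4 dpf and 7 dpf, respectively, at 8.63 and -7.49 for *S100a8*, 8.25 and -7.13 for *S100a9*, 6.89 and -6.85 for *Camp*, 6.88 and -5.37 for *Ngp*, and 5.47 and -3.68 for *Ltf*. *Camp*, *Ngp* and *Ltf* had no UMI in control T cells at 4 dpf, where RA was at least 244-fold, 241-fold and 89.7-fold higher when 3 UMIs per library are allowed for the count of 0. Of all neutrophil UMIs, 53.4% in RA 4 dpf and 99.7% in control 7 dpf lay in 1 T cell each, while 46 of 115 T cells and 59.9% of the mesenchymal cells of RA 4 dpf had *S100a8*, against 1 of 86 and 7.72% in control. Without the T cells that carried UMIs of other cell types, which limits on *S100a8* and *S100a9* helped to define, the neutrophil median was 0.59 at 4 dpf and -0.13 at 7 dpf, and the genes summed to 15.9 CPM in control and 172 CPM in RA at 4 dpf.

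The class II antigen presentation genes behaved alike, with 3.40 and -2.02 for *H2-Ab1*, 3.03 and -2.18 for *H2-Aa* and 3.07 and -1.15 for *Cd74*. Of the UMIs of the dendritic cell list, 89.7% in RA 4 dpf and 72.0% in control 7 dpf lay in 1 cell each, and without the cells that carried UMIs of other cell types the median of the list was -0.12 and 0.03. *Frmd5*, a gene of the *Cd4* only class, stood at -1.80 and 3.03, with 97.9% of its control UMIs at 4 dpf in 1 cell, and the ratio of cells with it was 1.12 (0.128 to 13.4) at 4 dpf and 2.84 (1.16 to 7.92) at 7 dpf.

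*Cd8a* only cells as a share of kept cells were 1.88 times as frequent in RA as in control at 4 dpf (1.02 to 3.57) and 0.454 times as frequent at 7 dpf (0.234 to 0.846). This share was picked because its interval lay wholly above 1 at 4 dpf and wholly below 1 at 7 dpf. That the intervals do not overlap follows from this choice and is no further finding. As a share of T cells the ratio was 1.10 (0.594 to 2.09) at 4 dpf and 0.446 (0.230 to 0.830) at 7 dpf.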

How the results depend on the processing

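The ratios of *Cd4* only, *Cd8a* only and *Trdc* only cells among T cells at 7 dpf kept their side of 1 under all 7 alternatives run on them, with ranges of 2.46 to 3.52, 0.379 to 0.449 and 0.135 to 0.404. The removal of doublets among these took out only 1 control and 2 RA T cells at 7 dpf and could hardly move the ratios. Under the alternatives some intervals included 1. With thinning these were *Cd4* only (0.824 to 8.83) and *Cd8a* only (0.0868 to 1.31). With at least 2 UMIs of the class gene it was *Cd8a* only (0.144 to 1.07). Without cells carrying other-cell UMIs it was *Trdc* only (0.0923 to 1.23). Of 56 alternative ratios of shares, 51 moved by less than their counting interval. The others were the T cell share at 4 dpf under the cell limits of the study's methods (2.76), the T cell share at 7 dpf under those limits (1.36), among *Ptprc* cells (1.58) and without T cells that carried UMIs of other cell types (0.717, with all kept cells still as denominator), and *Cd4* only cells at 4 dpf under the study's limits (5.30). The last of these rested on 1 control cell, with an interval of 0.770 to 228. Counts of genes past 2-fold followed the threshold by construction. At 4 dpf, where 83 were higher and 102 lower, 143 were higher with a pseudocount of 1 CPM and 39 with 30 CPM, 164 higher and 262 lower with a minimum of 20 UMIs, 22 and 20 with 200 UMIs, and 42 and 27 without cells carrying other-cell UMIs. At 7 dpf, where 54 were higher and 73 lower, 92 were higher with 1 CPM and 22 with 30 CPM, 156 lower with 20 UMIs, 14 higher and 12 lower with 200 UMIs, 17 lower without cells carrying other-cell UMIs, 122 lower with equal class weights and 45 lower with equal cell weights. Without the cells carrying other-cell UMIs, 29 of the 42 higher and 16 of the 27 lower genes at 4 dpf were among those of the full set, and 19 of 57 and 10 of 17 at 7 dpf. With equal class weights, 18 of the 66 higher genes at 7 dpf were among those of the full set. The share of higher genes among those past 2-fold was 44.9% at 4 dpf and 42.5% at 7 dpf, 57.6% and 55.0% with equal cell weights, and 52.2% and 41.6% with TMM factors, which put the median of all genes at 0.10 and 0.04. Without the cells carrying other-cell UMIs this share was 60.9% and 77.0%. Of 180 alternative list medians 18 had another sign than reported, in 10 of 20 medians. Of those reported at 0.4 or more in size, the type 3 median changed sign at 7 dpf with a minimum of 200 UMIs (0.51), when few of its genes remained, and at 4 dpf with 200 UMIs (0.04), equal class weights (0.18) and equal cell weights (0.01). With equal class weights, *Cd163l1* (0.031 in place of -1.07), *Il23r* (0.37), *Il1r1* (0.43), *Zbtb16* (0.55) and *Ctla4* (-0.20) changed sign at 4 dpf, and *Klrg1* (-0.40) and *Il1rl1* (-0.09) at 7 dpf. With equal cell weights, *Il23r* (0.63) and *Il1r1* (0.14) changed sign at 4 dpf. The cause was not tested. The regulatory median at 7 dpf ranged from 0.15 with equal class weights to 1.16. No paired analysis was possible because each condition had 1 library, and for the same reason no library could be left out. Depth limits the rare genes: 3 UMIs stand for 4.82, 2.93, 3.18 and 2.60 CPM in the T cells of control 4 dpf, RA 4 dpf, control 7 dpf and RA 7 dpf.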

Other observations

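The αβ receptor repertoire was broad as far as 3′ reads show it. A *Trav* segment was detected in 12, 24, 20 and 31 T cells of control 4 dpf, RA 4 dpf, control 7 dpf and RA 7 dpf, and these cells used 10, 19, 16 and 25 distinct segments of 128 in the annotation. The most frequent, *Trav16d-dv11* and *Trav16n*, were in 9 cells each. γ variable segments were detected in 0 of 103 *Cd4* only, 3 of 97 *Cd8a* only and 16 of 234 cells with none of the class genes, against 40 of 61 *Trdc* only cells. *Tcrg-V1*, another γ segment, was detected in 7 *Trdc* only cells, 0, 2, 2 and 3 in the same order of libraries.

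The genes that stood highest in a class over the other T cells in every library, given as the lowest of the 4 log2 ratios, were *Cd4* (4.31), *Klrg1* (2.58), *Tnfrsf4* (2.54), *Ifi27l2a* (2.13), *Foxp3* (1.93), *Ctla4* (1.92), *Gpr55* (1.85), *Icos* (1.73), *Frmd5* (1.36) and *Itgb8* (1.30) in *Cd4* only cells. In *Trdc* only cells they were *Trdc* (4.69), *Trdv4* (3.04), *Gm43434* (2.99), *Tcrg-C4* (2.48), *Clnk* (2.33), *Tcrg-C1* (2.14), *Zbtb16* (2.09), *Actn2* (1.89), *Tcrg-C2* (1.83) and *Abi3bp* (1.68). *Cd8a* only cells stood apart less, with *Cd8a* (3.99) and *Cd8b1* (2.46) followed by *Themis* (0.72), *Dapl1* (0.65), *Hdgfl3* (0.63), *Rcbtb1* (0.62), *Fam241a* (0.61), *Grap2* (0.57), *Nkg7* (0.57) and *Racgap1* (0.52). The classes were chosen from the same cells, so these are descriptions. Over all T cells the remaining genes of this kind were *Gm2682* (4.89), *Ms4a4b* (4.75), *Trbc1* (4.58), *Grap2* (4.50) and *Trac* (4.21), beside *Cd3d* (5.54), *Trbc2* (5.46), *Cd3g* (5.22) and *Cd3e* (4.25).

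Among the largest differences that had the same direction at both times, those higher in RA at 4 dpf were led by *Retnlg* (5.14), *Slpi* (2.33) and *Mmp9* (2.17), known from neutrophils, and by *Klra7* (2.15), *Klra1* (1.77), *Pglyrp1* (1.68), *Tnfsf8* (1.47), *Lyn* (1.42), *Myb* (1.37) and *Prkca* (1.36). Those lower at 4 dpf were the haemoglobin genes *Hba-a1* (-7.23), *Hbb-bs* (-7.04), *Hba-a2* (-6.54) and *Hbb-bt* (-6.10), *Spp1* (-4.38), *Fabp4* (-4.15), *Cald1* (-3.66), the muscle genes *Myog* (-3.62) and *Acta1* (-3.60), and *Col4a1* (-3.48), all of them genes of other cell types. At 7 dpf the higher genes not named so far were *Penk* (2.02, with 83.5% of its RA UMIs in 1 cell), *Sh3rf1* (1.43), *Gm20275* (1.39) and *Serpinb6b* (1.19), and the lower ones, apart from γδ genes, were *Fabp4* (-3.30), *Cdh13* (-2.74), *Emcn* (-2.62), *Spp1* (-2.51) and *Ptprb* (-2.51), genes known from adipose, endothelial and bone cells.

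Of the lists not yet described, inhibitory receptors had 2 of 7 genes at least 2-fold higher at 7 dpf (*Ctla4* and *Tox*, median 0.63) and 0 of 2 at 4 dpf. The NF-κB feedback list had 1 of 10 higher at 7 dpf (*Rel*, median 0.31) and 0 of 10 at 4 dpf (0.13). Tissue residence and chemokine receptor lists had *Cxcr6* (-1.17) lower at 7 dpf, 1 of 10 and 1 of 6, with medians of -0.08 and 0.10, and 0 of 7 and 0 of 5 past 2-fold at 4 dpf (-0.16 and 0.25). The glucocorticoid list had 1 of 9 lower at 7 dpf (*Zbtb16*, -1.10, median 0.22) and 0 of 9 at 4 dpf (-0.09). The immediate early list had *Ier3* (-1.27) of 13 lower at 7 dpf (median 0.12), and its median at 4 dpf was -0.14. At 4 dpf the cell cycle list had *Mcm5* (1.32) of 10 higher (median 0.30). The naive, interferon and glycolysis lists had no gene past 2-fold, with medians of 0.10, -0.32 and 0.14. Nor had the receptor complex list (0.25), which holds CD3 genes used to choose the cells.

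Among lists of other cell types, macrophage genes summed to 3446, 2405, 1278 and 688 CPM in the T cells of control 4 dpf, RA 4 dpf, control 7 dpf and RA 7 dpf, with 2 of 6 lower at 4 dpf and 2 of 5 at 7 dpf (medians -0.71 and -0.71), and *Spp1*, *Lyz2*, *Ly6c2* and *Ly6c2* as the most abundant. *Ly6c2* was detected in 70 of the 97 *Cd8a* only cells, so the 7 dpf sums cannot be read as RNA of other cells alone. Endothelial genes summed to 423, 96.7, 435 and 149 CPM, with 77.2% of the first sum in 1 cell. They were led by *Pecam1*, which was detected in 28 of 86, 48 of 115, 51 of 145 and 66 of 153 T cells. Dendritic genes summed to 51.4, 698, 515 and 170 CPM, B and plasma cell genes to 69.1, 51.8, 124 and 160 CPM, muscle and Schwann cell genes to 399, 0, 8.47 and 20.8 CPM and mast cell genes to 6.43, 11.7, 10.6 and 5.2 CPM. Natural killer and innate lymphoid genes, several of which T cells express too, summed to 412, 435, 724 and 768 CPM and were led by *Il18r1*, with *Klra7* higher and *Gzma* lower of 4 at 4 dpf and *Gzma* lower of 7 at 7 dpf.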
